A study of Homo sapiens with 6 samples.

Results

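The genes of the ribosomal S6 kinase family were compared between Daoy cells carrying wild-type and zinc-finger mutant ZBTB7B. The family was taken as all genes named RPS6KA, RPS6KB, RPS6KC or RPS6KL, which are 10 of the 60554 gene identifiers counted. It holds the 4 p90 ribosomal S6 kinases (RSK: RPS6KA1, RPS6KA2, RPS6KA3 and RPS6KA6), the 2 mitogen- and stress-activated kinases (MSK: RPS6KA4 and RPS6KA5), the 2 p70 S6 kinases (RPS6KB1 and RPS6KB2) and 2 distant relatives (RPS6KC1 and RPS6KL1). All 10 had enough reads to be tested.

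Daoy is an established human cell line that was derived from a medulloblastoma of the cerebellum. In the WT group (n = 3 libraries), cells overexpressed wild-type ZBTB7B, and in the ZFmut group (n = 3 libraries) they overexpressed ZBTB7B with the substitution R363L in the zinc-finger domain. Lentivirus delivered each construct (multiplicity of infection 15, 72 hr, within 4 days of growth in 10% serum), and no library without a ZBTB7B transgene was analysed here. The series concerns kinases that act on ATXN1, the protein of spinocerebellar ataxia type 1, among them RSK3 (RPS6KA2) and MSK1 (RPS6KA5). The question of the comparison is how far transcripts of this family depend on the zinc-finger domain of ZBTB7B, a transcription factor of the BTB and zinc-finger family.

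RSK and MSK proteins carry a pair of kinase domains in one chain. The C-terminal domain is switched on by ERK, or for the MSKs also by p38, and the N-terminal domain, of the AGC kinase family, then phosphorylates the substrates, after phosphorylation by PDK1 in the RSKs. The p70 S6 kinases have the AGC domain alone and are switched on by mTORC1 and PDK1, and they phosphorylate ribosomal protein S6 and other factors of translation and cell growth. All of this control acts on the proteins, whereas the values below are transcript levels.

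Gene counts per library ran from 22236214 to 102730428. The member with the fewest reads, RPS6KA5, had 196 in ZFmut replicate 2, and the highest member count was 10156 reads of RPS6KA3 in ZFmut replicate 3. ZBTB7B itself stood at 863 to 951 CPM in WT and at 547 to 627 CPM in ZFmut (CPM, read counts scaled by TMM library sizes), higher in WT by 0.65 ± 0.06 on the log2 scale (SE; adjusted p by edgeR, 1.39e-06). The groups thus differ in the amount of ZBTB7B transcript as well as in its sequence, and the part of each in the differences below cannot be told apart. Of 8 genes of neural precursors and hedgehog-group medulloblastoma, 7 were tested, and their summed level was 960 to 1002 CPM in WT against 1009 to 1046 CPM in ZFmut. For 7 genes of blood, liver and epithelium the sum was 0.739 to 1.17 CPM in WT and 0.848 to 1.23 CPM in ZFmut, with 1 gene tested.

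RPS6KA2 rose about 4-fold with WT ZBTB7B, RPS6KA4 fell to 0.771 of its ZFmut level, and the other 8 members did not pass the test. Over all 18683 tested genes, 18.4% passed in the higher direction and 17.2% in the lower, 35.6% in all; a gene passed where the p of edgeR's quasi-likelihood test, adjusted by Benjamini and Hochberg, was under 0.05. The members' shares were 1 of 10 in each direction, below those of all tested genes, and the difference from them was not tested. The median log2 difference (WT minus ZFmut) was 0.02 over the members and 0.00 over all tested genes. Groups did not overlap for 3 of the 10 members, against 47.2% of all tested genes. In these bulk samples, fewer cells that express a gene and less RNA per cell cannot be told apart. The labels do not say whether replicates were separate cultures; the p-values therefore rest on the spread between these libraries, which may be technical.

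**Figure D1:**
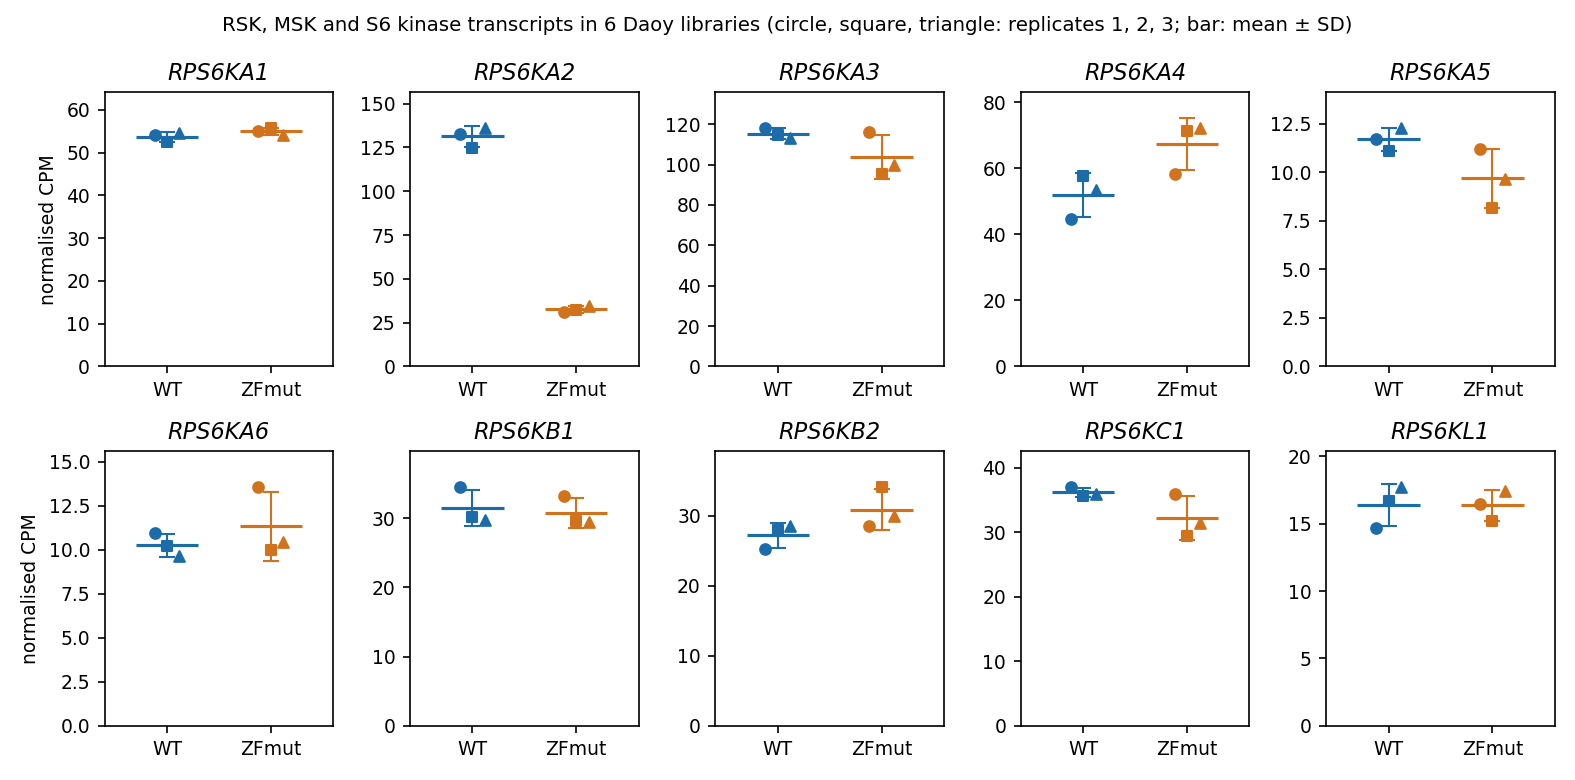
Level of each of the 10 kinase transcripts in normalised CPM (y axis, starting at 0) in the 3 WT and 3 ZFmut libraries; points are libraries, horizontal lines are means and vertical bars are SDs. RPS6KA2 lies between 125 and 136 CPM in WT and between 30.9 and 34.5 CPM in ZFmut, while most other members overlap between the groups.

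RPS6KA2 encodes RSK3, the RSK isoform that the series links to ATXN1. The gene (ENSG00000071242.11, GRCh38 chromosome 6, 166409364 to 166906451, minus strand) spans 497 kb, and GENCODE release 29 lists 13 transcript starts for it. RefSeq (GRCh38.p14) gives 3 promoters, and their 250 bases before the start are shown because RPS6KA2 is the member that differs most, and because starts so far apart are summed in a single count per gene. The windows lie at chr6:166862526-166862775, chr6:166627252-166627501 and chr6:166544691-166544940, all on the minus strand, and capitals mark GGGAGGG, a G-rich element described for ZBTB7B under its older name cKrox.
RPS6KA2 window 1: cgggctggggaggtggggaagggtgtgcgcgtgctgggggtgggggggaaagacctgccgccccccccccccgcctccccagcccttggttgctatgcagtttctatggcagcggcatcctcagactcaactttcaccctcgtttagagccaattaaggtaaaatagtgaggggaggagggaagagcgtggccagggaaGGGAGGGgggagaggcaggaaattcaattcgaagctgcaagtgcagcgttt
RPS6KA2 window 2: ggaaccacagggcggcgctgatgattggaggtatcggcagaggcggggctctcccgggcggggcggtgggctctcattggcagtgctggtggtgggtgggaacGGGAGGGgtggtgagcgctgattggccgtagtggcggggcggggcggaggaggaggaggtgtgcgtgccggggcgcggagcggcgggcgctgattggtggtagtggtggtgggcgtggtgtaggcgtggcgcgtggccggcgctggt
RPS6KA2 window 3: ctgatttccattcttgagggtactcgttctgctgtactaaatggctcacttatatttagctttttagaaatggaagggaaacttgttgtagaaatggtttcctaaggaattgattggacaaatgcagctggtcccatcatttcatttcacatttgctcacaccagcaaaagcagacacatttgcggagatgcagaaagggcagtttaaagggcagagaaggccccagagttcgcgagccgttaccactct
Windows 1 and 2 held GGGAGGG once each and window 3 did not hold it. On either strand, 24.7% of the 35116 RefSeq promoter windows of this length held it. GACCACC, the inner letters of an in vitro site of ZBTB7 factors, was in none of the 16 windows of the 10 members and in 2.42% of all windows. Window 2 was rich in other common promoter letters, with 5 matches of the GC box GGGCGG, held by 42.6% of all windows, and 4 of CCAAT, held by 32.0%. Window 1 had 1 of each, and window 3 had no GGGCGG and 1 CCAAT. GC content was 61.2, 72.4 and 43.6% in windows 1 to 3, against a median of 58% over all windows. Motifs were counted separately on both strands, with overlapping matches allowed, and a match is a description of these letters only. The first 50 transcribed bases of windows 1 and 3 were found in a GENCODE transcript and those of window 2 were not. Gene counts do not say which start was used.

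In WT replicates 1 to 3, the level of RPS6KA2 was 133, 125 and 136 CPM. In ZFmut replicates 1 to 3 it was 30.9, 32.2 and 34.5 CPM. Every WT library lay above every ZFmut library, and within each group the libraries stayed close together. The means were 131 ± 5.92 and 32.5 ± 1.83 CPM (SD, n = 3), a 4.01-fold difference. On the log2 scale it was 2.0 ± 0.06 (SE), with a 95% interval of 1.88 to 2.13 (edgeR adjusted p = 1.96e-11). Among the 18683 tested genes this increase ranked 117, and its p-value ranked 4. The difference rested on 693 to 3518 reads per ZFmut library and 3847 to 7088 per WT library. Over 17 alternative settings it stayed between 1.95 and 2.06.

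None of the other RSK genes passed the test. RPS6KA1 (RSK1; ENSG00000117676.13, chromosome 1, 26529761 to 26575030, plus strand) stood at 54.2, 52.4 and 54.5 CPM in WT and at 55.0, 55.8 and 54.2 CPM in ZFmut. Its log2 difference was -0.03 ± 0.05, with a 95% interval of -0.14 to 0.08 (edgeR adjusted p = 0.651). The groups overlapped.
RPS6KA3 (RSK2; ENSG00000177189.12, chromosome X, 20149911 to 20267519, minus strand), the gene mutated in Coffin-Lowry syndrome, stood at 118, 115 and 113 CPM in WT and at 116, 95.5 and 99.7 CPM in ZFmut. ZFmut replicate 1 lay among the WT libraries and the other ZFmut libraries below them. The log2 difference of 0.15 ± 0.07 did not pass (edgeR adjusted p = 0.0845). Without ZFmut replicate 1 it was 0.22 and passed (edgeR adjusted p = 0.00243), and with GC content and exon length corrected for it was 0.00 (edgeR adjusted p = 0.986).
RPS6KA6 (RSK4; ENSG00000072133.10, chromosome X, 84058346 to 84187907, minus strand) stood at 10.9, 10.2 and 9.62 CPM in WT and at 13.6, 9.97 and 10.4 CPM in ZFmut. The highest value came from ZFmut replicate 1 and the groups overlapped. Its log2 difference of -0.12 ± 0.11 did not pass (edgeR adjusted p = 0.398), but after the GC content and exon length correction it was -0.32 and did (edgeR adjusted p = 0.00282).

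Levels of different genes were compared per length of exon, in the unit TPM, in which counts per exon length sum to the same total in every library. RPS6KA2 made up 41.8, 41.1 and 43.1% of the summed RSK level in the WT libraries, in order of replicate. In the ZFmut libraries it made up 14.2, 16.1 and 17.0%. It was thus the largest share in each WT library and the third largest in each ZFmut library, behind RPS6KA3 and RPS6KA1. The means were 42.0 ± 1.02% and 15.8 ± 1.42% (SD, n = 3). The exact two-sided permutation test gave p = 0.1, the smallest p that 3 against 3 allows.
The summed RSK level was 151.7 ± 5.25 TPM in WT and 99.5 ± 7.11 TPM in ZFmut, 1.52 times as much, without overlap (exact permutation p = 0.1). Without RPS6KA2 the remaining RSK genes summed to 87.9 ± 2.45 TPM and 83.9 ± 7.19 TPM, and these groups overlapped (exact permutation p = 0.5). The ratio of WT to ZFmut was thus 1.52 with RPS6KA2 and 1.05 without it. As shares add up to a whole, the lower shares of RPS6KA1, RPS6KA3 and RPS6KA6 in WT go with the higher share of RPS6KA2.

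**Figure D2:**
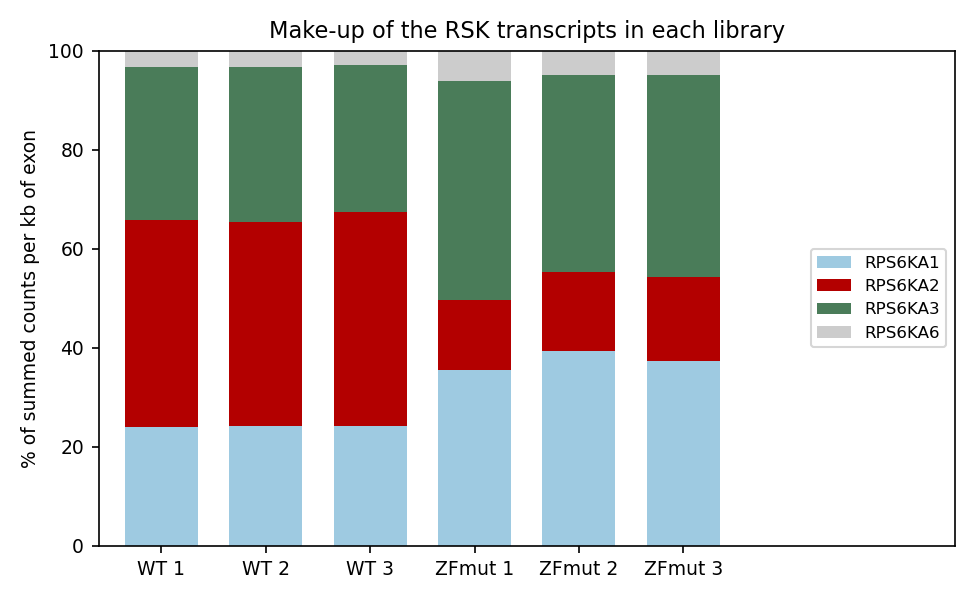
Share of each RSK gene (percent of the summed counts per kb of exon, y axis from 0 to 100) in each of the 6 libraries, as stacked bars. RPS6KA2 takes 41.1 to 43.1% in the WT libraries and 14.2 to 17.0% in the ZFmut libraries.

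Within each library RPS6KA2 was also set against each other member, a ratio that does not depend on scaling between libraries. The log2 ratio of RPS6KA2 to the other gene was higher in WT for all 9 of them, by 1.73 (RPS6KA5) to 2.39 (RPS6KA4). None of the 9 ratios overlapped between groups, and each gave the smallest exact permutation p of 0.1, which stayed 0.1 after adjustment over the 9 ratios. The mean ratio to RPS6KA3 changed sign, from 0.19 ± 0.08 in WT to -1.67 ± 0.21 in ZFmut (SD, n = 3, log2 of the CPM ratio). So did those to RPS6KA1, from 1.29 ± 0.04 to -0.76 ± 0.09, and to RPS6KA4, from 1.34 ± 0.23 to -1.04 ± 0.12. These ratios leave out exon length, so their sign does not say which transcript is more abundant. The 9 ratios share the RPS6KA2 value and are not independent.

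Of the MSK genes, RPS6KA4 fell with WT and RPS6KA5 lay just short of the threshold. RPS6KA4 (MSK2; ENSG00000162302.12, chromosome 11, 64359148 to 64372215, plus strand) encodes a nuclear kinase known, with MSK1, for phosphorylating CREB and histone H3. It stood at 44.7, 57.8 and 53.4 CPM in WT and at 58.3, 71.4 and 72.3 CPM in ZFmut. The highest WT value (57.8 CPM) and the lowest ZFmut value (58.3 CPM) nearly touched. Means of 52.0 ± 6.70 and 67.3 ± 7.83 CPM gave a difference of -0.37 ± 0.09 on the log2 scale, with a 95% interval of -0.57 to -0.18 (edgeR adjusted p = 0.00524). Its call held in all 17 alternatives, coming nearest to losing it when ZFmut replicate 3 was left out (edgeR adjusted p = 0.0486), and the GC content and exon length correction brought the log2 difference from -0.37 to -0.23 (edgeR adjusted p = 0.000532).
RPS6KA5 (MSK1; ENSG00000100784.9, chromosome 14, 90847862 to 91060636, minus strand) is the second kinase the series links to ATXN1. It stood at 11.7, 11.1 and 12.3 CPM in WT and at 11.2, 8.18 and 9.66 CPM in ZFmut. ZFmut replicate 1 overlapped the WT libraries. The log2 difference of 0.27 ± 0.10 (95% interval 0.05 to 0.49) lay at the threshold (edgeR adjusted p = 0.0504). It passed in 5 of 17 alternatives, among them limma-voom (adjusted p = 0.0387) and the fit without ZFmut replicate 1 (0.34, edgeR adjusted p = 0.00898). After the GC content and exon length correction it was 0.08 (edgeR adjusted p = 0.419). The summed MSK level, most of it RPS6KA4, was 56.3 ± 6.49 TPM in WT and 71.4 ± 6.84 TPM in ZFmut, 0.788 times as much in WT (exact permutation p = 0.1).

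Of the p70 S6 kinases, neither passed. RPS6KB1 (S6K1; ENSG00000108443.13, chromosome 17, 59893046 to 59950564, plus strand) stood at 34.5, 30.2 and 29.8 CPM in WT and at 33.2, 29.6 and 29.5 CPM in ZFmut. In each group replicate 1 was the highest. The log2 difference was 0.04 ± 0.07 (95% interval -0.12 to 0.20, edgeR adjusted p = 0.743) and turned to -0.13 after the GC content and exon length correction, where it did not pass either (edgeR adjusted p = 0.0669).
RPS6KB2 (S6K2; ENSG00000175634.14, chromosome 11, 67428460 to 67435408, plus strand) stood at 25.2, 28.0 and 28.5 CPM in WT and at 28.6, 34.1 and 30.0 CPM in ZFmut. The groups did not overlap, but by only a narrow margin. The log2 difference of -0.18 ± 0.08 did not pass (edgeR adjusted p = 0.0845). It passed without ZFmut replicate 1 (-0.23, edgeR adjusted p = 0.0197) and was -0.07 after the GC content and exon length correction. The 2 S6 kinases together summed to 35.1 ± 0.504 TPM in WT and 36.9 ± 0.918 TPM in ZFmut (exact permutation p = 0.1).

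The distant relatives are less well characterised as kinases, and neither passed. RPS6KC1 (ENSG00000136643.11, chromosome 1, 213051233 to 213274773, plus strand), which binds phosphoinositides through a PX domain, stood at 37.0, 35.6 and 36.0 CPM in WT and at 35.9, 29.4 and 31.4 CPM in ZFmut. ZFmut replicate 1 again lay with the WT libraries. The log2 difference of 0.17 ± 0.07 did not pass (edgeR adjusted p = 0.0802), passed when ZFmut replicate 1 was left out (0.23, edgeR adjusted p = 0.00558) and was 0.04 after the GC content and exon length correction. RPS6KL1 (ENSG00000198208.11, chromosome 14, 74903954 to 74923396, minus strand) stood at 14.7, 16.7 and 17.7 CPM in WT and at 16.5, 15.2 and 17.4 CPM in ZFmut. These groups overlapped throughout, with a log2 difference of -0.01 ± 0.08 (95% interval -0.19 to 0.17, edgeR adjusted p = 0.963).

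**Figure D3:**
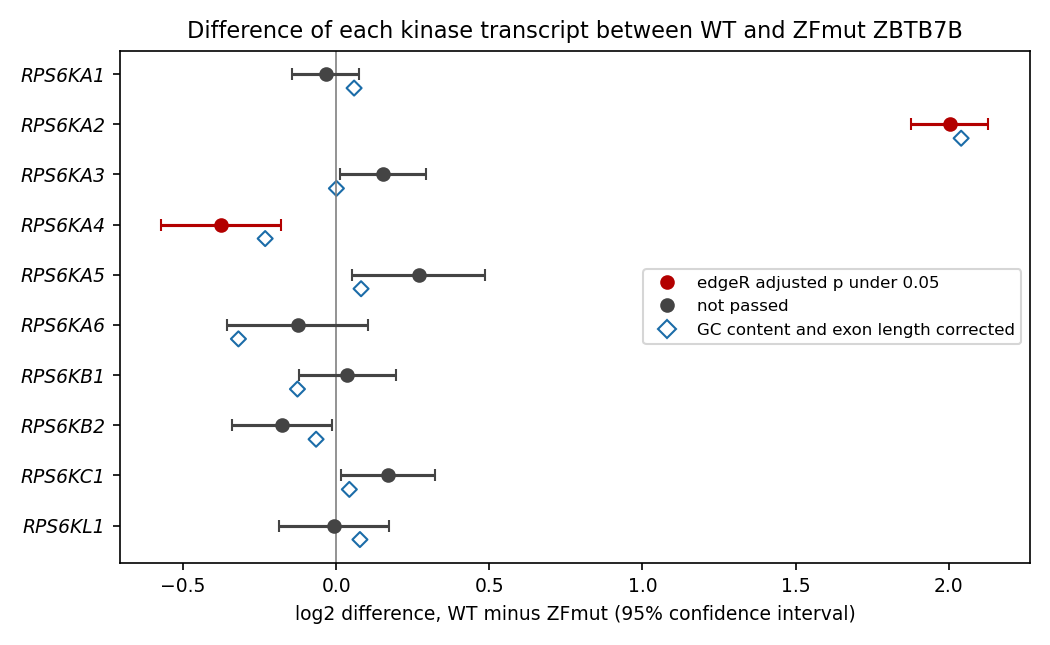
Log2 difference of each kinase transcript (x axis, WT minus ZFmut), with points for the edgeR estimates, bars for 95% confidence intervals and open diamonds for the estimates after correction for GC content and exon length. RPS6KA2 stands at 2.0 and RPS6KA4 at -0.37, and all other members lie between -0.18 and 0.27.

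The correction moved members of low GC content down and those of high GC content up. RPS6KA3, RPS6KA5, RPS6KA6, RPS6KB1 and RPS6KC1, whose longest transcripts have 34.4 to 42.0% GC, all came out lower after it. RPS6KA1, RPS6KA2, RPS6KA4, RPS6KB2 and RPS6KL1, with 54.2 to 64.7% GC, all came out higher. For RPS6KA2 the step was from 2.0 to 2.04, and for RPS6KA4 from -0.37 to -0.23.

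In order of level per length, RPS6KA2 was first in WT at 63.8 ± 3.36 TPM, followed by RPS6KA4 at 54.6 ± 6.54 TPM and RPS6KA3 at 46.5 ± 1.42 TPM. Neighbours among these 3 overlapped. RPS6KA1 (36.6 TPM) and RPS6KC1 (23.4 TPM) followed without overlap, then RPS6KB2 (18.7 TPM) and RPS6KB1 (16.4 TPM), which overlapped. RPS6KL1 (8.61 TPM), RPS6KA6 (4.83 TPM) and RPS6KA5 (1.67 TPM) were lowest, in that order and without overlap.
In ZFmut, RPS6KA4 was first at 70.0 ± 7.01 TPM, and RPS6KA2 was at rank 7 with 15.7 ± 0.913 TPM, next to RPS6KB1 at 15.9 TPM, with which it overlapped. RPS6KA3 (41.5 TPM) overlapped RPS6KA1 (37.1 TPM), and RPS6KB2 (21.0 TPM) overlapped RPS6KC1 (20.7 TPM). The last 3 places were those of WT, with RPS6KL1 at 8.53, RPS6KA6 at 5.30 and RPS6KA5 at 1.38 TPM. RPS6KA5 has by far the longest annotated exons, 27976 bases, which lowers its value per length. With the length of the longest transcript instead, a choice made after the data were seen, RPS6KA2 stayed at rank 1 in WT and rank 7 in ZFmut, while RPS6KA1 moved from rank 4 to rank 2 in WT.

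The members share little sequence with other genes, and no stretch of 50 bases is shared between any of the 10. RPS6KB1 shares 7.77% of such stretches with other genes, 265 of the 622 with the pseudogene AC053481.3. RPS6KB2 shares 6.62%, mainly with its antisense gene RPS6KB2-AS1. For RPS6KB2, 8.07% of exonic bases lie opposite exons of the other strand, and the strand setting of the counting is not given in the sources used here. RPS6KA5 overlaps DGLUCY on the other strand, which fell by 0.81 on the log2 scale (edgeR adjusted p = 5.17e-08), over 1.09% of its exonic bases, and shares 3.37% of stretches with other genes. The remaining members share 0 to 1.44%.

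Around RPS6KA2, 11 other genes within 500 kb were tested, of which 4 were higher, none was lower and 7 did not pass (18.4% of all tested genes were higher and 17.2% lower). The intronic RPS6KA2-IT1 (166460663 to 166465383), on the same strand inside the gene, had 19, 44 and 25 reads in WT and 2, 3 and 8 in ZFmut. Means of 0.741 and 0.0976 CPM gave a difference of 3.04 ± 0.36 on the log2 scale (edgeR adjusted p = 1.42e-05). At so few reads, transcripts of its own and unspliced RPS6KA2 RNA cannot be told apart. The developmental transcription factor gene TBXT, 241 kb away, was higher by 0.71 ± 0.17 (edgeR adjusted p = 0.00482) at 2.25 against 1.39 CPM.
PDE10A, a phosphodiesterase of cyclic nucleotides 421 kb away, was higher by 0.38 ± 0.09 (edgeR adjusted p = 0.00370), and by 0.18 after the GC content and exon length correction (edgeR adjusted p = 0.0372). MPC1, a subunit of the mitochondrial pyruvate carrier 26.4 kb from the gene's end, was higher by 0.22 ± 0.08 (edgeR adjusted p = 0.0373), a call that ended in 10 of 17 alternatives. RNASET2, 23.1 kb from the gene's other end, showed -0.01 ± 0.12 (edgeR adjusted p = 0.944), and FGFR1OP -0.01 ± 0.10 (edgeR adjusted p = 0.968). The neighbours SFT2D1 (0.05), PRR18 (0.36), HNRNPA1P49 (0.66), AL022069.1 (-0.28) and Z94721.1 (-0.22) did not pass either, but HNRNPA1P49, with 2 to 36 reads per library, was at 1.68 and passed when ZFmut replicate 3 was left out (edgeR adjusted p = 0.0416). Leaving RPS6KA2-IT1 aside, every tested neighbour had a smaller estimate than RPS6KA2 itself.

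**Figure D4:**
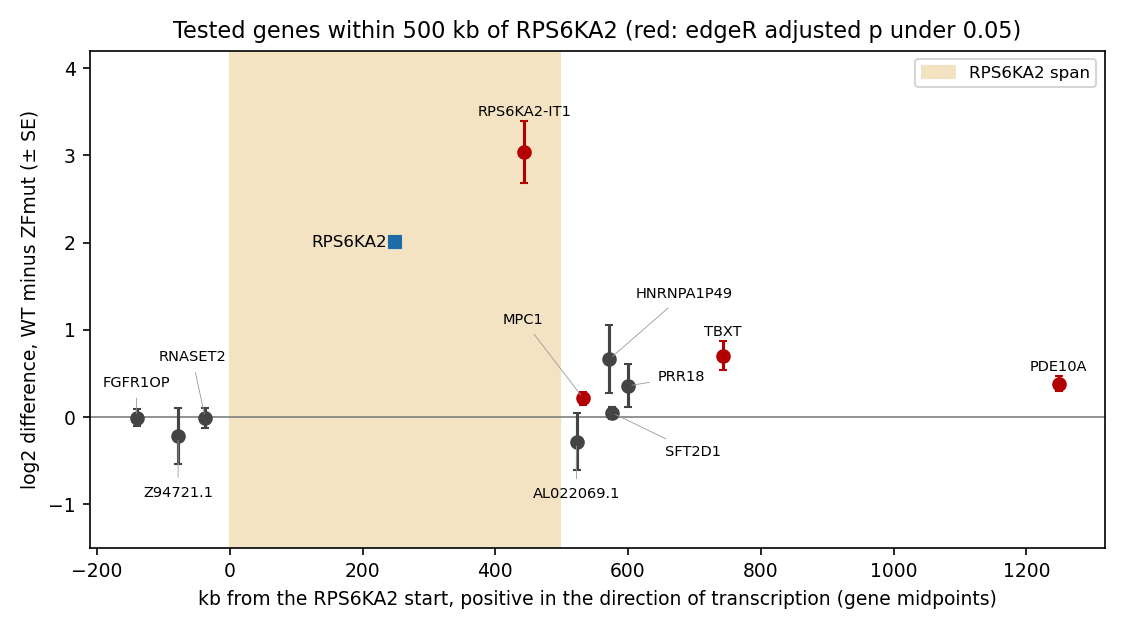
Log2 difference (y axis, WT minus ZFmut, ± SE) of the 11 tested genes within 500 kb of RPS6KA2 and of RPS6KA2 itself (square), against the distance of each gene's midpoint from the RPS6KA2 start in kb. RPS6KA2 at 2.0 and RPS6KA2-IT1 at 3.04 lie above all neighbours, of which TBXT at 0.71 is the highest.

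The surroundings of other members were described by counts alone, to be read against the 18.4% higher and 17.2% lower among all tested genes; no difference from these shares was tested. Of 31 tested genes within 500 kb of RPS6KA4, 2 were higher and 11 lower, and around RPS6KB2, on the same chromosome, 1 of 26 was higher and 8 lower. Of 20 around RPS6KA1, 0 were higher and 9 lower, although RPS6KA1 itself did not pass. Of 13 around RPS6KB1, 4 were higher and 0 lower. Around RPS6KA5, RPS6KA3, RPS6KA6, RPS6KC1 and RPS6KL1, between 1 and 18 genes were tested, with at most 1 higher and 3 lower each.

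The 5 protein-coding genes whose profile over the 6 libraries lay nearest to that of RPS6KA2 were SCUBE1, IGFBP3, FGFR3, FLT1 and ELFN1. Likeness was the root mean square distance between centred log2 CPM profiles, among 11243 genes of at least 5 CPM. The distances were 0.0805, 0.0970, 0.110, 0.129 and 0.129. FGFR3 (a fibroblast growth factor receptor) and FLT1 (a receptor of vascular endothelial growth factors) were 4.61- and 3.77-fold higher with WT. IGFBP3, which binds insulin-like growth factors, was 3.54-fold higher, at 101 ± 6.47 against 28.3 ± 1.16 CPM. None of the 5 lies on chromosome 6. With 6 libraries in 2 groups, likeness mostly reflects a similar fold difference.

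Genes that act before and after these kinases were followed in 5 lists. They held 107 tested genes: 31 higher, 19 lower and 57 that did not pass. The share lower, 17.8%, was close to the 17.2% of all tested genes. The share higher was above their 18.4%, and that difference was not tested. The counts of each single list are to be read against the same 18.4% higher and 17.2% lower, and no list was tested against these shares. In the ERK and p38 activators, 3 of 18 rose and 5 fell, with a median log2 difference of 0.00. After the GC content and exon length correction, 6 of the 18 were higher. On the p38 side, MAP2K3, a p38 kinase kinase, was higher by 0.46 and MAPK11 (p38 beta) by 0.39. MAPK12 (p38 gamma) stood at -0.78 and MAPK13 (p38 delta) at -0.75. MAPK14 (p38 alpha), the p38 gene with the most reads, was at 85.8 CPM in WT and 82.7 CPM in ZFmut. Its log2 difference of 0.06 did not pass (edgeR adjusted p = 0.403), nor did that of the kinase kinase MAP2K6 (-0.21, edgeR adjusted p = 0.128). KSR1, a scaffold of the ERK cascade, was lower at -0.39.

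Among 20 genes listed as mTORC1 input to the S6 kinases, 3 rose and 2 fell, with a median of 0.04. The list holds activators of mTORC1 together with inhibitors such as TSC1, and also RICTOR and MAPKAP1 of mTORC2. Its counts and median therefore give no direction of the input. With single libraries left out the counts ran from 1 to 5 higher and from 0 to 4 lower, the most without ZFmut replicate 1. RRAGD, a Rag GTPase that brings mTORC1 to the lysosome, was higher by 0.50 ± 0.06 (edgeR adjusted p = 2.90e-05). TSC1 (0.15) and LAMTOR5 (0.19) lost their calls in 11 and 10 of 17 alternatives, and MLST8 (-0.23) in 6. RPTOR, the subunit that binds S6 kinases to mTORC1, was at -0.22 and did not pass when ZFmut replicate 3 was left out (edgeR adjusted p = 0.0624).

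Of 20 substrates of the family, 4 were higher and 6 lower, with a median of -0.06. CAD, the pyrimidine synthesis enzyme phosphorylated by S6K1, was lower at -0.51 ± 0.07 (edgeR adjusted p = 3.31e-05), with IRS1 at -0.46 and FLNA, a filamin phosphorylated by RSK, at -0.41. PDCD4, an inhibitor of translation that S6K1 marks for breakdown, was higher by 0.26, and the nuclear receptor gene NR4A1 by 0.36. GSK3B was higher by 0.19, but by 0.05 after the GC content and exon length correction (edgeR adjusted p = 0.337). Without WT replicate 3, 2 substrates were higher in place of 4.

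Of 18 genes that restrain ERK and mTORC1, 9 were higher, 1 was lower and 8 did not pass, with a median of 0.18. Among all tested genes 18.4% were higher and 17.2% lower, and the difference from these shares was not tested. DUSP4, a phosphatase of nuclear ERK, rose from 24.1 ± 2.82 to 48.3 ± 2.12 CPM, a log2 difference of 0.99 ± 0.08 (edgeR adjusted p = 3.05e-07). The Sprouty genes SPRY4 (0.65) and SPRY2 (0.60), inhibitors of receptor signalling to ERK, were higher too. DDIT4, an inhibitor of mTORC1, was lower at -0.78 ± 0.12 (edgeR adjusted p = 0.000111). Without WT replicate 3, 5 of the 18 were higher, while the genes called higher over all tested genes went from 3442 to 2654.

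Among 31 tested genes of other AGC kinases (of 32 listed), relatives of the N-terminal RSK domain, 12 were higher and 5 lower, with a median of 0.12. The shares over all tested genes were 18.4% higher and 17.2% lower, and the difference from them was not tested. Without ZFmut replicate 1, 8 were lower. SGK1, a serum-induced kinase activated by mTORC2 and PDK1, was higher by 0.70 ± 0.06 (edgeR adjusted p = 8.84e-07), at 112 ± 3.72 against 68.7 ± 6.08 CPM. PRKCE (protein kinase C epsilon) was higher by 0.63 and LATS2 of the Hippo pathway by 0.42. PKN3 stood at -0.62 and PRKCB (protein kinase C beta) at -0.58. No AGC kinase of this list differed by as much as RPS6KA2.

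**Figure D5:**
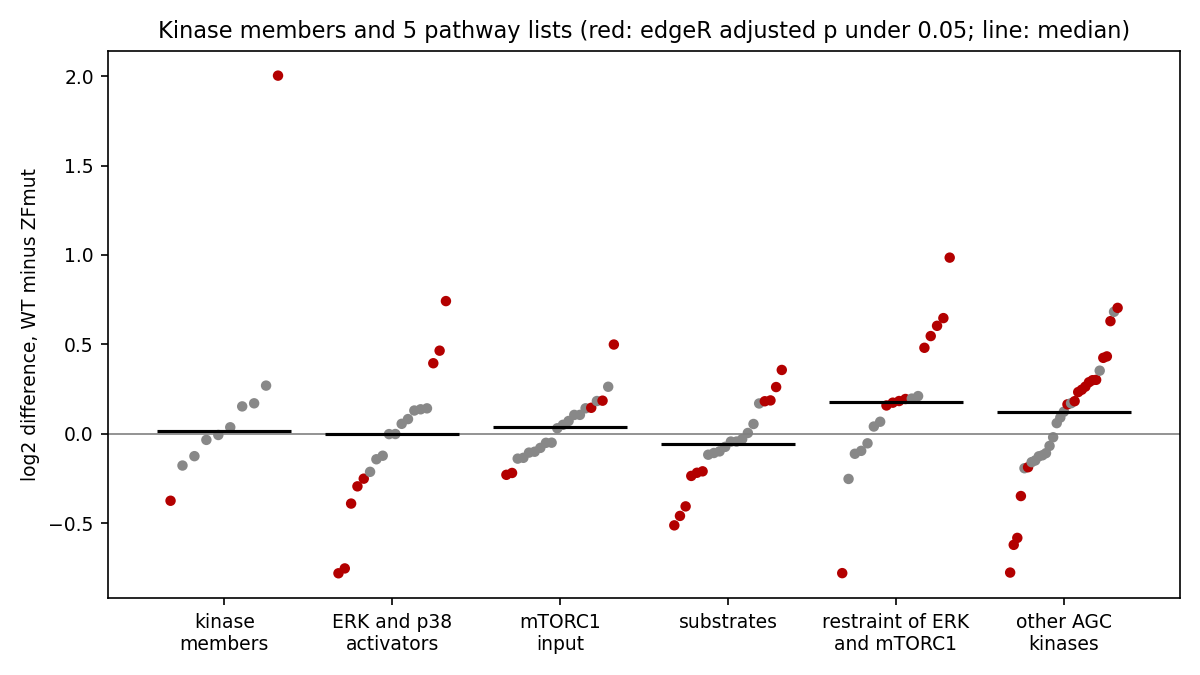
Log2 difference (y axis, WT minus ZFmut) of the 10 kinase members and of the tested genes of the 5 pathway lists, ordered by value within each; red points passed the edgeR test and horizontal lines are medians. RPS6KA2 at 2.0 stands above every gene of the lists, the next being DUSP4 at 0.99.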

How the data were processed

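The authors deposited unnormalised read counts for each gene. Per the submitters' processing notes, the tools were HTSeq, TopHat2 2.0.9, cutadapt and DESeq2, and the genome was GRCh38. The annotation release is not given in the sources used here. Summary lines without a gene, 7.71 to 8.08% of the total for ambiguous reads, 5.04 to 6.56% for reads outside genes and 16.1 to 19.4% for multiply aligned reads, were left out. Of 60554 identifiers, 56996 (94.1%) matched GENCODE release 29.

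WT was compared with ZFmut by edgeR 4.0.16 in R 4.3.3 (TMM, filterByExpr, two-sided quasi-likelihood F test, no covariates), with Benjamini-Hochberg adjustment over 18683 genes and a threshold of 0.05. The biological coefficient of variation was 6.27%. TPM used the union of exons. As a separate check the tests were also run on simulated data, and all p-values given here are from the deposited counts. Named genes were the 10 members, up to 3 called genes per list and direction by p, tested genes within 500 kb of RPS6KA2 and the 5 nearest profiles, with ZBTB7B. Some genes that this rule takes are left out here. DGLUCY, MAPK14 and MAP2K6 were added after their values were seen. The members and lists were chosen with earlier results of these data known. Alternatives were DESeq2 1.42.0, limma-voom (limma 3.58.1), other scalings and filters, thinning, a replicate block, a GC content and exon length correction (loess span 0.5) and each library left out.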

Additional observations from a re-analysis of the deposited data

How the results depend on the processing

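RPS6KA2 kept its direction and its call in all 17 alternatives, and so did RPS6KA4. Beyond RPS6KA2, more members were called higher with limma-voom (2 in all), without the low-count filter (2) and after thinning to the smallest library (2). Over all tested genes, 3581 of 18683, 3315 of 40559 and 3017 of 17743 were higher in these settings, in that order. With one library left out, 1 to 4 members were higher and 1 to 2 lower, and the most were called without ZFmut replicate 1. The GC content and exon length correction gave 2 members lower, while over all tested genes it gave 4428 of 18547 lower, against 3207 of 18683 without it. Over all genes, leaving out a library gave 2504 to 3782 higher and 2266 to 3934 lower, and over the lists 20 to 36 higher and 16 to 26 lower. RPS6KA5 and RPS6KA6 had the fewest reads of the members and the largest standard errors, 0.10 and 0.11 on the log2 scale. RPS6KA4, with 1293 to 7367 reads per library, had a standard error of 0.09, and what sets these errors was not tested. Genes of low level, TBXT, MAPK13 and RPS6KA2-IT1 among them, were not tested under the filter of 5 CPM and have no value there.

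The replicate numbers were not taken to pair the libraries, because the labels do not say that they do. The correlations of deviations between same-numbered libraries were 0.16, 0.08 and 0.06, and each library correlated best with its own number. Whether same-numbered libraries share an effect was not tested. With the replicate number as a block, 4 members were higher and 2 lower, 4466 genes were higher and 4226 lower, and 42 list genes were higher and 30 lower. The members called beyond RPS6KA2 and RPS6KA4 were RPS6KA3 (0.16, edgeR adjusted p = 0.00125), RPS6KA5 (0.29, 0.00386) and RPS6KC1 (0.18, 0.00658), higher, and RPS6KB2 (-0.18, 0.00894), lower. In the lists, the block gave 7 ERK and p38 activators higher, 5 genes of the mTORC1 input lower and 9 other AGC kinases lower. With the block and the GC content and exon length correction together, 1 member was higher and 3 lower, 3557 genes were higher and 4683 lower, and 29 list genes were higher and 26 lower; the lower members besides RPS6KA4 were RPS6KA6 (-0.34, edgeR adjusted p = 0.000652) and RPS6KB1 (-0.14, 0.0341), and 10 substrates were lower. The RPS6KA2 log2 difference was 2.01 with the block and 2.05 with both.

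Some differences that had not passed changed sign, and the cause was not tested; of the reversed values only that of RPS6KB1 with the correction and the block passed. After the GC content and exon length correction without and with the block, RPS6KA1 was at 0.059 and 0.058, RPS6KB1 at -0.13 and -0.14, RPS6KL1 at 0.078 and 0.098, and SFT2D1 at -0.079 and -0.080. With the block alone RPS6KL1 was at 0.0093. After thinning, RPS6KA1 was at 0.0020, SFT2D1 at -0.018, RNASET2 at 0.067 and FGFR1OP at 0.057, and with limma-voom RNASET2 was at 0.0047. With one library left out, RPS6KB1 ranged from -0.039 to 0.075, RPS6KL1 from -0.060 to 0.053, RNASET2 from -0.070 to 0.045 and FGFR1OP from -0.061 to 0.035.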
